A study of Mus musculus with 30 samples.

Results

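The genes described here are 39 of the 43629 genes in the count tables: sodium channel subunits, voltage-gated calcium channel subunits, pacemaker channels, and the proteins that store, release and remove calcium in heart muscle cells. They came from a list of gene symbols matched to the Ensembl identifiers of the tables, no measured value chose them, and each of the 39 was found. The mice were wild type C57BL/6J, and 30 libraries of heart RNA were sequenced, 5 in each of 6 groups. MI hearts came from mice whose coronary artery was tied off on day 0 under isoflurane, once the chest had been opened and the pericardium taken away, to model myocardial infarction (MI), and they were sampled at day 2, day 4 or day 7. Sham hearts of the same days came from mice that had the same operation with no ligation. The labels give neither the part of the heart nor the age of the mice, and they do not say that the libraries of a group are separate animals, so the p-values measure only the spread between these libraries.

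When a heart muscle cell is excited, sodium channels carry the upstroke of the action potential and L-type calcium channels then admit a little calcium. That calcium opens ryanodine receptors on the sarcoplasmic reticulum, where calsequestrin and the histidine-rich calcium-binding protein hold the store and where junctin, triadin and junctophilin hold the release site together. The cell relaxes when the pump of the sarcoplasmic reticulum takes the calcium back, under the brake of phospholamban, and when the sodium-calcium exchanger and plasma membrane pumps push it out of the cell.

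Libraries held 7841930 to 14070017 counts, and a gene with no count may hold up to 3 counts, which is 0.213 to 0.383 CPM (counts per 1000000 counts of a library). The 39 genes together took 1.43 to 4.018% of the counts of a library. Levels below are CPM, given for each of 5 libraries or as mean ± SD (n = 5 per group). Fold changes are from edgeR with TMM scaling, as log2 fold change ± SE at days 2, 4 and 7. Before that scaling the median gene was higher in MI hearts by 0.088, 0.18 and 0.21 on the log2 scale at days 2, 4 and 7, and after it the medians were -0.0051, 0.0061 and 0.012. The 9 genes that mark heart muscle cells summed to 41180 to 47850 CPM in MI hearts, against 50270 to 57930 CPM in sham hearts at day 2. Their sums were 36690 to 45750 CPM in MI hearts, against 56230 to 68420 CPM in sham hearts at day 4. At day 7 the same genes summed to 35090 to 42760 CPM in MI hearts, against 52940 to 62330 CPM in sham hearts. None of the 9 was at 0 in any library. Of these 9 markers, 5, 7 and 6 were called lower and 1, 0 and 0 higher at days 2, 4 and 7. Fewer heart muscle cells in a sample and less RNA of a gene per cell cannot be told apart in these bulk libraries. All day 2 libraries carry another run name than the day 4 and day 7 libraries, so day 2 and the sequencing run cannot be told apart. Libraries with transcripts of another tissue were sham day 4 replicates 2 and 3, sham day 7 replicates 1, 2 and 3 and MI day 7 replicate 2. In these the lung genes Sftpc and Scgb1a1 summed to 50 CPM or more. Under that cutoff, MI day 7 replicates 3, 4 and 5 held 22.03, 10.68 and 24.05 CPM of them. MI day 7 replicate 4 held 288 CPM of the skeletal muscle myosin Myh1.

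To show the DNA at the starts of the genes that the results turn on, the promoters of Scn4b and Hrc, with the deepest falls among channel subunits and store proteins, and of Sri and Fkbp1b, which rose, are printed from RefSeq (GRCm38.p6). Each runs 5′ to 3′ on the strand of the gene, from 250 bases before the start of transcription to 50 bases after it. RefSeq promoters were matched for 29 of the 39 genes. Capitals mark matches, on either strand, to 5 short motifs. The letters TATAAA stand for the TATA box. The letters CATTCC stand for the M-CAT core. A GATA motif was searched as AGATAA, and a T-box motif as AGGTGT. For the MEF2 core the search used TAAAAATA. No motif holds another.
Scn4b promoter, chr9:45138374-45138673, plus strand: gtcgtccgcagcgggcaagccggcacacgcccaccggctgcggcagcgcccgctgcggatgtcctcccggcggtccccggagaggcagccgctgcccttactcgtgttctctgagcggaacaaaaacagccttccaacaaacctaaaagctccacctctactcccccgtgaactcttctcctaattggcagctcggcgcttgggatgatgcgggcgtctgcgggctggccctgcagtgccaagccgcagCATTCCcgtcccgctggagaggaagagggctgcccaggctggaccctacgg
Hrc promoter, chr7:45335019-45335318, plus strand: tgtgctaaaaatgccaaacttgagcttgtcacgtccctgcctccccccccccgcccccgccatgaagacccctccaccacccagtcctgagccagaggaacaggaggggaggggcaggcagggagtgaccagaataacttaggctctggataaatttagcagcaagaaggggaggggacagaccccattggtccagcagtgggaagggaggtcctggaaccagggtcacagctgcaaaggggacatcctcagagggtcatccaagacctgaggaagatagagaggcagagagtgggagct
Sri promoter, chr5:8045828-8046127, plus strand: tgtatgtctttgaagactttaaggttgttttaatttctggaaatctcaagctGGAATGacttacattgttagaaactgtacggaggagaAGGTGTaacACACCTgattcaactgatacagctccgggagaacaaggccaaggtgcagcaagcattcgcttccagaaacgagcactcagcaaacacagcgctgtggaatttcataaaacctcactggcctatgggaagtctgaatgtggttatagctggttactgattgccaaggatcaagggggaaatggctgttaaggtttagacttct
Fkbp1b promoter, chr12:4841524-4841823, minus strand: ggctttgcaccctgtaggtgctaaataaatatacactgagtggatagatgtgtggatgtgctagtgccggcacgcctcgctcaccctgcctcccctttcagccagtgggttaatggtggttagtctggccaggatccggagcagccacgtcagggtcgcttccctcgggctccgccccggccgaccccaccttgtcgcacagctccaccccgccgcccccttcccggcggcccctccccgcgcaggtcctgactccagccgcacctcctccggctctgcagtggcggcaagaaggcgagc
The Scn4b window holds 1 M-CAT core, and the Sri window holds 1 M-CAT core and 2 T-box motifs. None of the 5 motifs was found in the Hrc and Fkbp1b windows, which says only that these letters are not there. Among 32851 mouse promoters of the same length, 14.7% hold the M-CAT core, 13.7% the T-box motif, 13.6% the TATA box, 11.2% the GATA motif and 2.7% the MEF2 core. In the first RefSeq promoter listed for each of the 29 matched genes, 5, 4, 2, 4 and 2 hold them, in that order. A further T-box motif lies in another promoter of Cacna1c, a gene with several listed. A match is a description of the letters and not evidence of binding.

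On each of the 3 days more of these genes were called lower in MI hearts than higher. A gene was called where the adjusted p over all genes tested was under 0.05. At day 2, 2 genes were called higher and 22 lower of 38 tested, where 24.1% of all genes tested were called higher and 22.2% lower. At day 4, 3 were called higher and 24 lower of 38, where 27.5% of all genes were called higher and 25.2% lower. At day 7, 6 were called higher and 20 lower of 38, where 28.4% of all genes were called higher and 26.6% lower. The same shares stand beside every count by role or by marker list in this text. A count near them is no result about that role or list. The median log2 fold change of the 38 genes was -0.39, -0.53 and -0.59 at days 2, 4 and 7, beside medians over all genes of -0.0051, 0.0061 and 0.012. Scn2b, a sodium channel beta subunit, did not pass the filter on low counts on any day, at 0.103 to 0.745 CPM in MI hearts, against 0.0854 to 0.685 CPM in sham hearts, at day 2. Its range was 0.510 to 1.13 CPM in MI hearts, against 0.302 to 1.65 CPM in sham hearts, at day 4. Scn2b ranged over 0.757 to 2.16 CPM in MI hearts, against 0.638 to 1.37 CPM in sham hearts, at day 7.

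**Figure D1:**
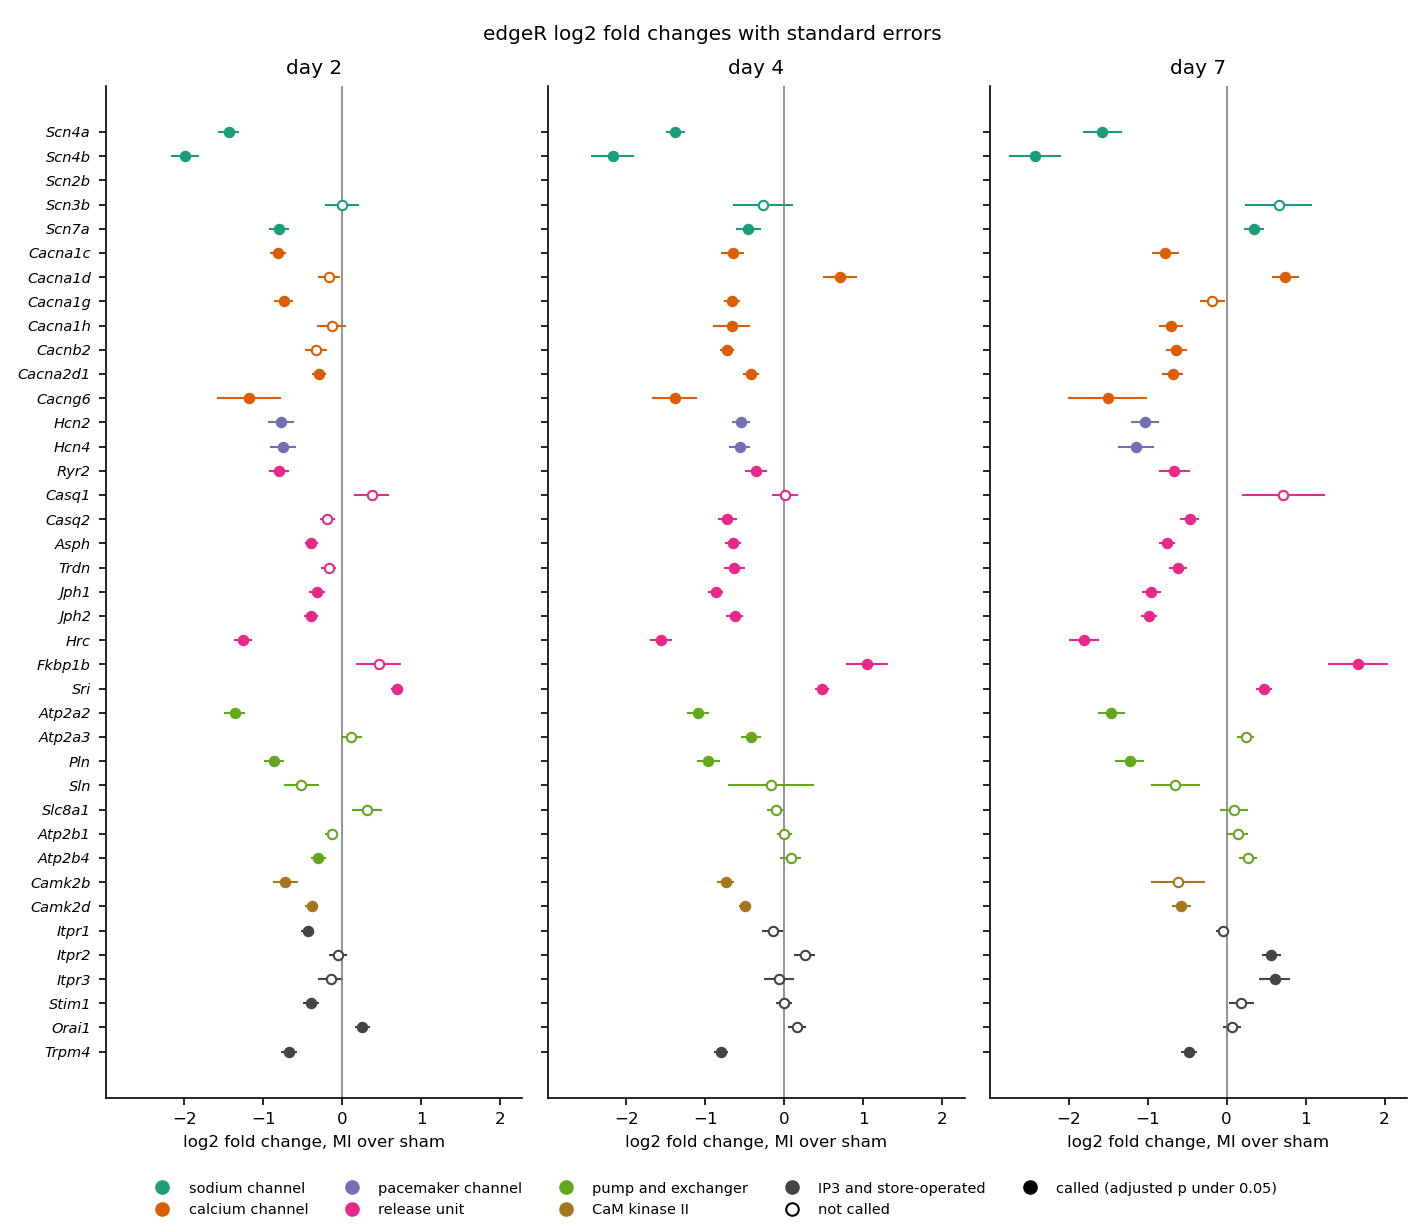
Log2 fold change of MI over sham hearts (horizontal axis, with standard error) for each gene, by role, at days 2, 4 and 7. Filled points passed the adjusted p of 0.05, and most lie left of 0: 22, 24 and 20 genes were called lower against 2, 3 and 6 called higher.

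Of the 4 sodium channel genes tested, 3 were called lower at days 2 and 4. At day 7, 2 were called lower and 1 higher. Scn4b had the lowest log2 fold change of the 38 genes tested on each day. Scn4b (ENSMUSG00000046480, chr9:45138395-45154152, plus strand), the beta subunit that shapes resurgent sodium current, had 9.36, 19.8, 13.4, 8.81 and 9.87 CPM in MI hearts, against 43.1, 42.0, 45.8, 45.3 and 52.2 CPM in sham hearts at day 2. At day 4 it had 19.0, 19.6, 32.3, 16.2 and 15.7 CPM in MI hearts, against 138, 64.3, 78.4, 62.2 and 68.6 CPM in sham hearts. At day 7 it had 12.3, 14.8, 5.28, 20.3 and 26.1 CPM in MI hearts, against 64.3, 93.0, 55.7, 87.3 and 70.3 CPM in sham hearts. No MI library reached the lowest sham library on any day, and sham day 4 replicate 1 stood far above its group. Scn4b had log2 fold changes of -1.99 ± 0.18, -2.17 ± 0.27 and -2.43 ± 0.33 at days 2, 4 and 7 (SE, edgeR adjusted p = 1.41e-06, 6.56e-05 and 8.33e-05), which is 3.98-, 4.51- and 5.39-fold lower. The sequence of its start is printed above.

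Scn4a (ENSMUSG00000001027, chr11:106318592-106353288, minus strand), the pore-forming subunit best known from skeletal muscle, had 10.6, 16.7, 13.2, 13.9 and 12.01 CPM in MI hearts, against 38.3, 28.5, 27.8, 39.9 and 34.8 CPM in sham hearts at day 2. Its day 4 levels were 14.3, 17.0, 22.03, 14.2 and 17.3 CPM in MI hearts, against 46.9, 34.7, 38.6, 37.0 and 38.6 CPM in sham hearts. At day 7 Scn4a had 9.21, 14.4, 7.84, 19.5 and 18.2 CPM in MI hearts, against 32.6, 34.6, 26.5, 49.7 and 36.6 CPM in sham hearts. MI and sham libraries did not overlap on any day, and the log2 fold changes were -1.44 ± 0.13, -1.38 ± 0.12 and -1.58 ± 0.24 (adjusted p = 1.35e-06, 5.63e-07 and 0.000146). MI day 7 replicate 4, with 288 CPM of Myh1, held 19.5 CPM of Scn4a, below every sham library of that day.

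Scn7a (ENSMUSG00000034810, chr2:66673425-66784914, minus strand), an atypical subunit that responds to sodium concentration, was lower in MI hearts at days 2 and 4 and higher at day 7. It had 15.8, 18.3, 19.4, 17.0 and 14.99 CPM in MI hearts, against 33.2, 34.2, 20.2, 27.8 and 24.5 CPM in sham hearts at day 2. At day 4 it had 19.3, 20.2, 30.1, 19.5 and 31.6 CPM in MI hearts, against 29.2, 27.9, 39.7, 24.6 and 25.6 CPM in sham hearts. At day 7 Scn7a had 38.6, 48.0, 45.6, 37.8 and 37.5 CPM in MI hearts, against 29.7, 38.9, 24.0, 25.6 and 24.5 CPM in sham hearts. The groups were apart at day 2, overlapped at day 4, and overlapped at day 7 only through sham replicate 2. Scn7a had log2 fold changes of -0.80 ± 0.13, -0.46 ± 0.16 and 0.35 ± 0.13 (adjusted p = 0.000155, 0.0245 and 0.0314). At day 4 the call was lost without MI replicate 1, 2 or 4 or sham replicate 3 (log2 fold changes -0.40 to -0.35), and without sham replicates 2 and 3, which hold lung transcripts (-0.33). At day 7 it was lost without MI replicate 2 or 3 or sham replicate 1, 3, 4 or 5 (log2 fold changes 0.29 to 0.36), and with the log2 sum of the atrial light chain genes Myl7 and Myl4 as a covariate (0.32). Genes that mark fibroblasts summed to 1200 to 1771 CPM in MI hearts, against 1127 to 2173 CPM in sham hearts at day 2. Their sums were 4193 to 7946 CPM in MI hearts, against 1723 to 3540 CPM in sham hearts at day 4. At day 7 the same genes summed to 5825 to 12220 CPM in MI hearts, against 1557 to 2835 CPM in sham hearts. Of these 6 fibroblast genes 0, 3 and 6 were called higher and 2, 1 and 0 lower at the 3 days, and their part in the Scn7a values was not tested. Scn3b, another beta subunit, passed no test, at 4.04 ± 3.02 CPM in MI hearts, against 2.201 ± 0.813 CPM in sham hearts at day 7, where MI replicate 2 held 9.23 CPM.

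Of the 7 calcium channel genes, 4, 6 and 5 were called lower at days 2, 4 and 7, and 0, 1 and 1 higher. Cacna1c (ENSMUSG00000051331, chr6:118587240-119196418, minus strand), which encodes the main pore of the ventricle, had 136, 137, 149, 151 and 120 CPM in MI hearts, against 239, 233, 181, 251 and 238 CPM in sham hearts at day 2. At day 4 Cacna1c had 158, 224, 185, 125 and 201 CPM in MI hearts, against 301, 204, 265, 217 and 257 CPM in sham hearts. At day 7 Cacna1c had 145, 207, 154, 166 and 208 CPM in MI hearts, against 264, 236, 174, 281 and 354 CPM in sham hearts. The groups were apart at day 2 and overlapped at days 4 and 7. Cacna1c had log2 fold changes of -0.81 ± 0.097, -0.65 ± 0.14 and -0.77 ± 0.17 (adjusted p = 1.13e-05, 0.00164 and 0.00206). Cacna2d1, the extracellular subunit that brings the pore to the membrane, averaged 210.1 ± 35.6 CPM in MI hearts, against 294 ± 36.5 CPM in sham hearts at day 7. Cacna2d1 had log2 fold changes of -0.29 ± 0.084, -0.42 ± 0.097 and -0.69 ± 0.13 (adjusted p = 0.0103, 0.00206 and 0.000721). Cacnb2, the main cardiac beta subunit, averaged 76.0 ± 8.18 CPM in MI hearts, against 89.5 ± 20.04 CPM in sham hearts at day 2. At day 4 Cacnb2 averaged 58.0 ± 6.45 CPM in MI hearts, against 84.7 ± 4.73 CPM in sham hearts. At day 7 Cacnb2 averaged 47.5 ± 6.29 CPM in MI hearts, against 64.6 ± 10.5 CPM in sham hearts. It fell at days 4 and 7, with log2 fold changes of -0.72 ± 0.09 and -0.64 ± 0.13 (adjusted p = 1.11e-05 and 0.000954). It had a log2 fold change of -0.33 ± 0.14 at day 2 (adjusted p = 0.0661), which became a call without MI replicate 4 or sham replicate 2 or 3 (log2 fold changes -0.40 to -0.39), and in the fit of all 30 libraries (-0.35).

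Cacna1d (ENSMUSG00000015968, chr14:30039939-30491455, minus strand), the L-type pore of pacemaker and atrial cells, went the other way. It had 5.86, 6.16, 4.24, 4.90 and 4.005 CPM in MI hearts, against 5.51, 5.55, 4.87, 5.33 and 5.201 CPM in sham hearts at day 2, where the MI values spread over the narrow sham range. At day 4 it had 8.67, 5.26, 10.2, 9.12 and 9.71 CPM in MI hearts, against 3.92, 3.76, 5.77, 3.22 and 6.77 CPM in sham hearts. At day 7 it had 9.66, 10.8, 17.2, 10.7 and 10.5 CPM in MI hearts, against 7.05, 6.05, 6.27, 6.03 and 5.36 CPM in sham hearts, with all 5 MI libraries above all 5 sham libraries and MI replicate 3 the highest. Cacna1d had log2 fold changes of -0.16 ± 0.14, 0.70 ± 0.22 and 0.74 ± 0.17 (adjusted p = 0.359, 0.0129 and 0.0024), called at days 4 and 7. The annotation places 589 bases of Cacna1d exons opposite the gene Chdh, which averaged 0.898 CPM.

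The T-type pores, which open at more negative voltage, were lower at the days they passed the test. Cacna1g had 17.3, 19.3, 19.8, 16.4 and 14.6 CPM in MI hearts, against 28.8, 23.4, 22.1, 30.5 and 31.9 CPM in sham hearts at day 2, where the groups did not overlap. At day 4 Cacna1g had 16.6, 19.0, 20.7, 18.4 and 22.5 CPM in MI hearts, against 30.7, 22.4, 30.3, 24.2 and 29.1 CPM in sham hearts. At day 7 it had 18.3, 24.3, 27.7, 35.8 and 24.0 CPM in MI hearts, against 26.7, 20.9, 23.8, 29.8 and 27.7 CPM in sham hearts, where the groups overlapped and MI replicate 4 was the highest library. Cacna1g had log2 fold changes of -0.74 ± 0.12, -0.66 ± 0.11 and -0.18 ± 0.16 (adjusted p = 0.000149, 0.000111 and 0.358). Cacna1h averaged 20.8 ± 6.94 CPM in MI hearts, against 29.4 ± 8.74 CPM in sham hearts at day 4. At day 7 Cacna1h averaged 24.9 ± 4.59 CPM in MI hearts, against 35.5 ± 6.11 CPM in sham hearts. Cacna1h had log2 fold changes of -0.13 ± 0.18, -0.67 ± 0.23 and -0.71 ± 0.15 (adjusted p = 0.586, 0.0314 and 0.00133). Its day 4 call was lost without MI replicate 1 or 4 or sham replicate 3 or 5 (log2 fold changes -0.65 to -0.50). It was also lost without sham replicates 2 and 3 together (-0.52), and with no filter on low counts (-0.65). Its day 2 value became a call without MI replicate 4 (log2 fold change -0.37). Cacng6, a gamma subunit, is near the limit of counting: it averaged 0.989 ± 0.695 CPM in MI hearts, against 2.07 ± 0.546 CPM in sham hearts at day 2. At day 4 Cacng6 averaged 1.502 ± 0.422 CPM in MI hearts, against 3.46 ± 1.05 CPM in sham hearts. At day 7 Cacng6 averaged 1.41 ± 1.31 CPM in MI hearts, against 3.63 ± 1.99 CPM in sham hearts. Cacng6 had log2 fold changes of -1.18 ± 0.40, -1.39 ± 0.28 and -1.51 ± 0.50 (adjusted p = 0.0257, 0.000785 and 0.0215). Its day 2 call was lost without MI replicate 1 or 5 or sham replicate 2, 4 or 5 (log2 fold changes -1.13 to -1.08), and with the atrial sum as a covariate (-1.12). At day 7 the log2 fold change was -2.25 without MI replicate 4 and -2.55 without the libraries that hold transcripts of another tissue, and the call was lost without MI replicate 3 (-1.33) or sham replicate 2 (-1.17).

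Both pacemaker channel genes fell on each day. Hcn2, the HCN channel of the ventricle, had 28.7, 21.7, 38.8, 19.3 and 23.5 CPM in MI hearts, against 52.8, 40.3, 40.0, 34.3 and 43.9 CPM in sham hearts at day 2. At day 4 Hcn2 had 28.5, 28.9, 29.5, 28.6 and 21.8 CPM in MI hearts, against 36.4, 30.4, 33.0, 35.3 and 42.7 CPM in sham hearts. At day 7 Hcn2 had 22.1, 28.6, 17.1, 19.8 and 36.7 CPM in MI hearts, against 46.1, 47.3, 42.1, 38.8 and 46.9 CPM in sham hearts. The groups overlapped at day 2 only through MI replicate 3 and were apart afterwards. Hcn4, the main channel of the sinus node, averaged 7.06 ± 1.53 CPM in MI hearts, against 11.0 ± 1.95 CPM in sham hearts at day 2. At day 4 Hcn4 averaged 10.7 ± 1.67 CPM in MI hearts, against 14.1 ± 1.94 CPM in sham hearts. At day 7 Hcn4 averaged 7.84 ± 2.46 CPM in MI hearts, against 15.1 ± 3.47 CPM in sham hearts. Hcn2 had log2 fold changes of -0.78 ± 0.17, -0.55 ± 0.11 and -1.03 ± 0.17 (adjusted p = 0.00176, 0.000856 and 0.00026). Hcn4 had log2 fold changes of -0.75 ± 0.16, -0.57 ± 0.13 and -1.15 ± 0.22 (adjusted p = 0.00141, 0.00187 and 0.000715). Of 4 genes that mark conduction tissue or nerve cells, Cntn2, Tbx3, Shox2 and Isl1, 3 passed the filter, and 2, 1 and 1 of those were called lower at days 2, 4 and 7. Their sums were 18.9 to 25.5 CPM in MI hearts, against 28.2 to 36.7 CPM in sham hearts at day 2. At day 4 they were 29.0 to 35.9 CPM in MI hearts, against 32.6 to 42.3 CPM in sham hearts. At day 7 they were 24.0 to 35.9 CPM in MI hearts, against 27.0 to 43.8 CPM in sham hearts. The sums were apart at day 2 and overlapped at days 4 and 7. Isl1 was at 0 in some libraries, and the part of these 4 genes in the Hcn4 values was not tested.

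Of the 7 pump and exchanger genes, 3, 3 and 2 were called lower at days 2, 4 and 7, and 0 higher on each day. The pump of the sarcoplasmic reticulum and its brake were the most abundant of the 39 transcripts and were both lower. Atp2a2 (ENSMUSG00000029467, chr5:122453513-122502225, minus strand), which encodes that pump, had 9036, 11731, 11744, 8302 and 9925 CPM in MI hearts, against 21494, 16892, 17520, 18947 and 21145 CPM in sham hearts at day 4. It had 6484, 9426, 6069.9, 7556 and 9788 CPM in MI hearts, against 18943, 18159, 14954, 20442 and 22068 CPM in sham hearts at day 7. At day 2 the ranges were 6031 to 9887 CPM in MI hearts, against 16426 to 21384 CPM in sham hearts. No MI library reached the lowest sham library on any day. Atp2a2 had log2 fold changes of -1.36 ± 0.13, -1.10 ± 0.14 and -1.46 ± 0.17 (adjusted p = 1.91e-06, 1.12e-05 and 1.56e-05), so MI hearts held 2.57-, 2.14- and 2.76-fold less. Pln (ENSMUSG00000038583, chr10:53337667-53345987, plus strand), phospholamban, the inhibitor of the pump, had 6190.2, 7812, 6750.2, 5182 and 7652 CPM in MI hearts, against 9716, 10789, 12894, 11464 and 12412 CPM in sham hearts at day 2. At day 4 Pln had 4032, 4905, 4151, 4645 and 3273 CPM in MI hearts, against 6679, 7619, 5701, 7715 and 8486 CPM in sham hearts. At day 7 Pln had 4650, 4154, 2477, 3387 and 5200.4 CPM in MI hearts, against 7733, 7930.2, 9125, 7881 and 8014 CPM in sham hearts. The groups were apart on each day. Pln had log2 fold changes of -0.87 ± 0.12, -0.96 ± 0.15 and -1.23 ± 0.18 (adjusted p = 5.81e-05, 7.44e-05 and 8.49e-05). Pln shares 141 bases, 5.1% of its exon bases, with Cep85l on the other strand, which averaged 11.4 CPM, and 1644 bases, 59.6%, with the noncoding Gm47644 on the other strand, which was not analysed here. The strand setting of the counting is not given in the sources used here, so reads of such pairs cannot be told apart.

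**Figure D2:**
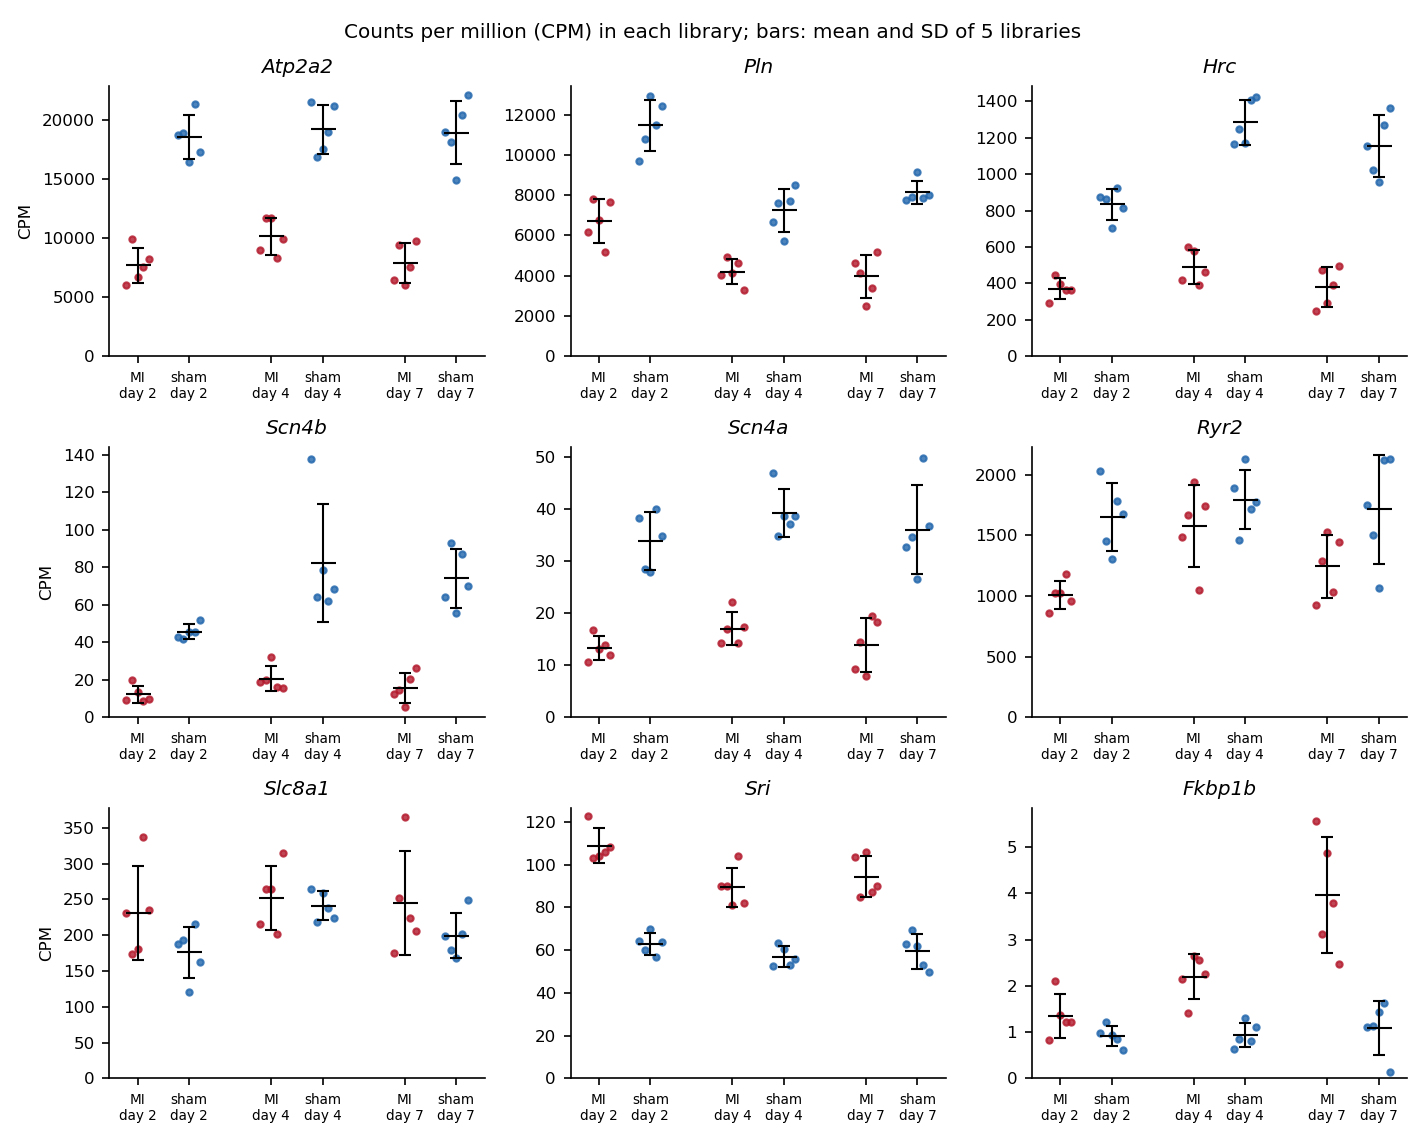
CPM of 9 genes in each library (points), with the mean and SD of 5 libraries, for MI (red) and sham (blue) hearts at days 2, 4 and 7. Atp2a2, Pln, Hrc, Scn4b and Scn4a show no overlap between MI and sham libraries of a day, Sri lies above sham on all 3 days, and Slc8a1 overlaps on each.

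Sln, sarcolipin, a second inhibitor of the pump that is typical of atrial muscle, passed no test. It had 137, 209, 110.4, 101 and 107 CPM in MI hearts, against 175, 127, 229.7, 124 and 228 CPM in sham hearts at day 2. At day 4 Sln had 123, 24.2, 208, 211 and 134 CPM in MI hearts, against 58.9, 174, 222, 114 and 128 CPM in sham hearts. At day 7 Sln had 305, 166, 95.6, 174 and 279.6 CPM in MI hearts, against 307, 242, 413, 282 and 158 CPM in sham hearts. Both groups spread widely and overlapped on each day. Sln had log2 fold changes of -0.51 ± 0.23, -0.17 ± 0.55 and -0.65 ± 0.31 (adjusted p = 0.0838, 0.82 and 0.0994). The lowest Sln library, MI day 4 replicate 2 at 24.2 CPM, was also the lowest for the atrial light chains Myl7 and Myl4, which summed to 137 CPM there. In the same library Cacna1g, with 19.0 CPM, lay within the 16.6 to 22.5 CPM of its group. The 4 atrial markers summed to 949.5 to 1512 CPM in MI hearts, against 1106 to 1735 CPM in sham hearts at day 2. Their sums were 162 to 1039 CPM in MI hearts, against 535 to 1288 CPM in sham hearts at day 4. At day 7 the same genes summed to 949 to 1450 CPM in MI hearts, against 912 to 1808 CPM in sham hearts. Of these 4, 2, 1 and 2 were called lower and 0 higher, and none was at 0. With the log2 sum of Myl7 and Myl4 as a covariate, the log2 fold changes of Cacna1g were -0.68, -0.67 and -0.30 at days 2, 4 and 7. The log2 fold changes of Sln with that covariate were -0.13, 0.13 and -0.26, and none was called. Without the libraries that hold transcripts of another tissue they were 0.27 at day 4 and -0.19 at day 7. The Sln call at day 2 was gained without MI replicate 2 or sham replicate 2 or 4 (log2 fold changes -0.73 to -0.62). At day 7 a call was gained without MI replicate 1 or sham replicate 5 (log2 fold changes -0.85 to -0.80).

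**Figure D3:**
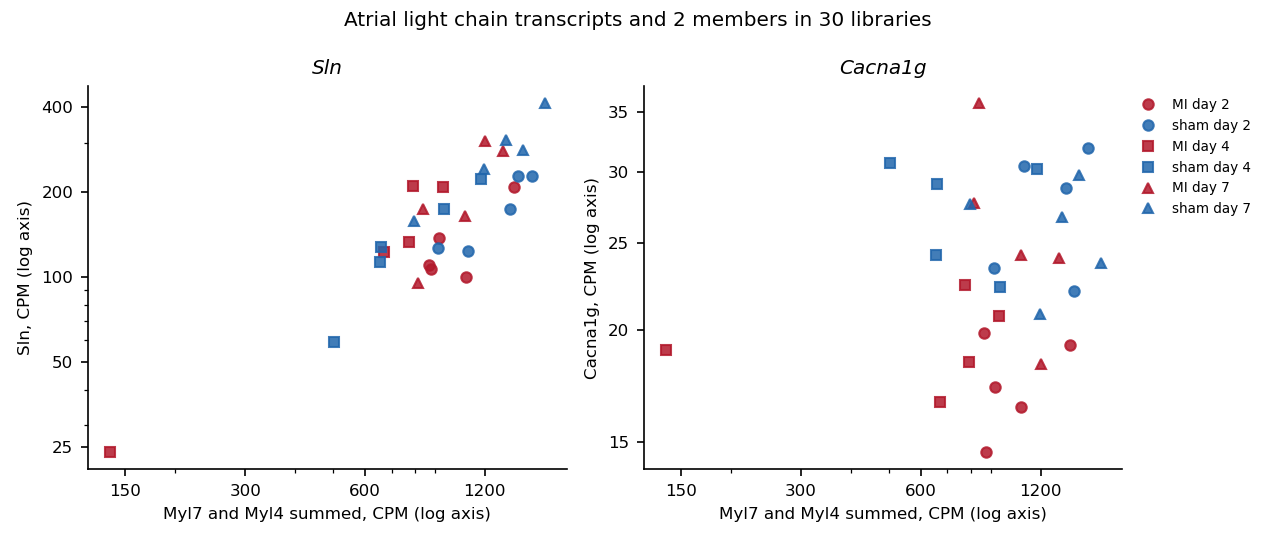
CPM of Sln (left) and Cacna1g (right) against the summed CPM of the atrial light chains Myl7 and Myl4 in 30 libraries, all axes logarithmic, MI in red and sham in blue. The MI day 4 library with 137 CPM of the light chains has the lowest Sln, 24.2 CPM, while its Cacna1g of 19.0 CPM is not the lowest.

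Atp2a3, the pump of endothelial and blood cells, averaged 15.8 ± 3.32 CPM in MI hearts, against 13.6 ± 1.39 CPM in sham hearts at day 2. At day 4 Atp2a3 averaged 17.8 ± 1.04 CPM in MI hearts, against 21.3 ± 4.93 CPM in sham hearts. At day 7 Atp2a3 averaged 25.6 ± 2.79 CPM in MI hearts, against 18.9 ± 1.71 CPM in sham hearts. Atp2a3 had log2 fold changes of 0.11 ± 0.13, -0.42 ± 0.13 and 0.24 ± 0.10 (adjusted p = 0.504, 0.0121 and 0.0613), called lower at day 4 only. The day 4 value was -0.28 and no longer called without sham replicates 2 and 3, which hold lung transcripts. At day 7 it became a call, as higher, without MI replicate 5 or sham replicate 2 (log2 fold changes 0.29 to 0.30). The 4 endothelial markers summed to 783 to 1023 CPM in MI hearts, against 733 to 979 CPM in sham hearts at day 4, with 1 called lower and 0 higher, and their part in the Atp2a3 values was not tested.

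The genes that carry calcium out of the cell passed few tests. Slc8a1 (ENSMUSG00000054640, chr17:81373105-81738377, minus strand), the sodium-calcium exchanger, had 232, 173, 180.3, 337 and 235 CPM in MI hearts, against 187, 194, 121, 215 and 162 CPM in sham hearts at day 2. At day 4 Slc8a1 had 216, 265, 264, 201 and 314 CPM in MI hearts, against 265, 219, 259, 238 and 225 CPM in sham hearts. At day 7 Slc8a1 had 176, 251.9, 365, 225 and 206 CPM in MI hearts, against 198, 179, 169, 201 and 249 CPM in sham hearts. The groups overlapped on each day, and the log2 fold changes were 0.31 ± 0.19, -0.11 ± 0.11 and 0.096 ± 0.18 (adjusted p = 0.203, 0.422 and 0.669). Atp2b1, a plasma membrane calcium pump, had log2 fold changes of -0.13 ± 0.082, 0.0012 ± 0.095 and 0.14 ± 0.13 (adjusted p = 0.203, 0.992 and 0.388). Atp2b4, another such pump, averaged 28.7 ± 3.74 CPM in MI hearts, against 33.2 ± 3.43 CPM in sham hearts at day 2. At day 7 Atp2b4 averaged 52.6 ± 8.19 CPM in MI hearts, against 38.1 ± 5.32 CPM in sham hearts. Atp2b4 had log2 fold changes of -0.30 ± 0.097, 0.079 ± 0.14 and 0.27 ± 0.12 (adjusted p = 0.0186, 0.652 and 0.0613), called lower at day 2. The day 7 value became a call, as higher, without MI replicate 1 (log2 fold change 0.33).

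Of the 10 genes of the release unit, 5, 7 and 7 were called lower and 1, 2 and 2 higher at days 2, 4 and 7. Genes of the channel, store and junction were called lower, Casq1 passed the test on no day, and those called higher were Sri and Fkbp1b, which encode small regulators of the ryanodine receptor. Hrc (ENSMUSG00000038239, chr7:45335290-45338974, plus strand), the histidine-rich calcium-binding protein of the store, had 292, 445, 397, 363 and 363 CPM in MI hearts, against 874, 862, 702, 922 and 812 CPM in sham hearts at day 2. At day 4 Hrc had 417, 602, 576, 394 and 464 CPM in MI hearts, against 1168, 1249, 1173, 1408 and 1425 CPM in sham hearts. At day 7 Hrc had 247, 475, 292, 390.3 and 495 CPM in MI hearts, against 1154, 1022, 956, 1269 and 1365 CPM in sham hearts. The highest MI library stayed below the lowest sham library on each day, and the log2 fold changes were -1.26 ± 0.11, -1.57 ± 0.14 and -1.80 ± 0.19 (adjusted p = 8.41e-07, 4.93e-07 and 9.09e-06). That is 2.39-, 2.96- and 3.49-fold lower. The cation channel gene Trpm4, described below, lies next to Hrc on the opposite strand, with 1509 bases between the starts of the pair.

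Ryr2 (ENSMUSG00000021313, chr13:11553102-12106945, minus strand), the ryanodine receptor itself, had 857, 1026, 1028, 1178 and 963 CPM in MI hearts, against 2028, 1455, 1305, 1787 and 1674 CPM in sham hearts at day 2. At day 4 Ryr2 had 1487, 1668, 1944, 1048 and 1739 CPM in MI hearts, against 1892, 1462, 2129, 1714 and 1772 CPM in sham hearts. At day 7 Ryr2 had 923, 1290.5, 1531, 1033 and 1448 CPM in MI hearts, against 1749, 1506, 1062, 2121 and 2130.1 CPM in sham hearts. The groups were apart at day 2 and overlapped at days 4 and 7. Ryr2 had log2 fold changes of -0.80 ± 0.13, -0.36 ± 0.15 and -0.66 ± 0.20 (adjusted p = 0.000124, 0.0492 and 0.0132). The day 4 call was lost without MI replicate 1, 2, 4 or 5 or sham replicate 1, 3, 4 or 5 (log2 fold changes -0.39 to -0.24), and without sham replicates 2 and 3 together (-0.38). It was also lost in the fit of all 30 libraries (-0.37) and with no filter on low counts (-0.34).

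Casq2, the calsequestrin of heart muscle, averaged 1115 ± 97.1 CPM in MI hearts, against 1192 ± 118 CPM in sham hearts at day 2. At day 4 Casq2 averaged 1008 ± 137 CPM in MI hearts, against 1467 ± 173 CPM in sham hearts. At day 7 Casq2 averaged 941 ± 144 CPM in MI hearts, against 1135 ± 91.4 CPM in sham hearts. It fell at days 4 and 7 (log2 fold changes -0.72 ± 0.13 and -0.47 ± 0.12, adjusted p = 0.000216 and 0.00492). At day 2 its log2 fold change was -0.19 ± 0.098 (adjusted p = 0.131), which became a call without MI replicate 4 (log2 fold change -0.26). Trdn, triadin, had log2 fold changes of -0.17 ± 0.097, -0.63 ± 0.13 and -0.62 ± 0.12 (adjusted p = 0.169, 0.00103 and 0.000687), and was called at the same 2 days. Asph, the gene of junctin, ranged from 177 to 249 CPM in MI hearts, against 307 to 324 CPM in sham hearts at day 7, and the MI libraries lay below the sham libraries on each day. Its counts are per gene, so they do not single out the transcripts that encode junctin. Asph had log2 fold changes of -0.39 ± 0.083, -0.65 ± 0.10 and -0.75 ± 0.10 (adjusted p = 0.00131, 9.67e-05 and 5.37e-05), and 2302 of its exon bases, 14.3%, lie opposite Clvs1, which averaged 1.31 CPM. Casq1, the calsequestrin of fast skeletal muscle, passed no test. Casq1 had log2 fold changes of 0.38 ± 0.22, 0.013 ± 0.17 and 0.72 ± 0.53 (adjusted p = 0.181, 0.952 and 0.275). At day 7 it had 6.82, 9.75, 14.4, 47.3 and 9.81 CPM in MI hearts, against 11.4, 6.84, 7.70, 14.7 and 6.12 CPM in sham hearts. The highest value belongs to MI replicate 4, the library with 288 CPM of Myh1, and without it the log2 fold change was -0.065. The 9 skeletal markers, of which Ckm is also abundant in heart, summed to 394 to 3006 CPM in MI hearts, against 1840 to 2131 CPM in sham hearts at day 7, and 4 of them were tested, with 2 called higher and 1 lower. Myh1 and Myh2 were at 0 in 2 of the MI libraries of day 7. At day 2 Casq1 became a call, as higher, without MI replicate 2 or sham replicate 5 (log2 fold changes 0.51 to 0.56).

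Junctophilins tether the release site to the cell membrane. Jph2, the heart form (ENSMUSG00000017817, chr2:163336242-163397993, minus strand), had 564, 567, 582, 661 and 651 CPM in MI hearts, against 787, 761, 695, 784 and 711 CPM in sham hearts at day 2. At day 4 Jph2 had 717, 814, 694, 628 and 610.4 CPM in MI hearts, against 861, 948, 930.3, 1024 and 977 CPM in sham hearts. At day 7 Jph2 had 449.8, 584, 538, 524 and 585 CPM in MI hearts, against 951, 884, 845, 964 and 973 CPM in sham hearts. MI libraries were below sham libraries on each day. Jph1, better known from skeletal muscle, had 32.2, 28.8, 38.6, 36.5 and 27.9 CPM in MI hearts, against 37.1, 40.9, 38.4, 37.7 and 38.0 CPM in sham hearts at day 2. At day 4 Jph1 had 20.9, 26.0, 22.1, 22.3 and 20.8 CPM in MI hearts, against 36.2, 34.8, 34.0, 37.4 and 38.7 CPM in sham hearts. At day 7 Jph1 had 19.7, 21.99, 21.2, 25.9 and 25.1 CPM in MI hearts, against 40.3, 31.3, 35.7, 41.3 and 44.2 CPM in sham hearts. The groups overlapped at day 2 through MI replicate 3 and were apart afterwards. Jph2 had log2 fold changes of -0.39 ± 0.088, -0.63 ± 0.11 and -0.98 ± 0.10 (adjusted p = 0.00195, 0.000167 and 8.66e-06). Jph1 had log2 fold changes of -0.32 ± 0.098, -0.87 ± 0.093 and -0.96 ± 0.12 (adjusted p = 0.0151, 2.88e-06 and 2.65e-05).

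Sri (ENSMUSG00000003161, chr5:8046078-8069379, plus strand), sorcin, a calcium-binding protein that reduces the opening of the ryanodine receptor, had 123, 103, 104, 106 and 108 CPM in MI hearts, against 64.1, 60.0, 70.0, 56.7 and 63.7 CPM in sham hearts at day 2. At day 4 Sri had 90.1, 89.8, 81.0, 104 and 81.9 CPM in MI hearts, against 52.3, 63.4, 60.4, 53.0 and 55.6 CPM in sham hearts. At day 7 Sri had 104, 85.1, 106, 87.3 and 90.0 CPM in MI hearts, against 62.9, 69.6, 62.0, 52.9 and 49.6 CPM in sham hearts. Each MI library was above each sham library of its day. Sri had log2 fold changes of 0.70 ± 0.079, 0.47 ± 0.091 and 0.48 ± 0.10 (adjusted p = 6.83e-06, 0.000491 and 0.00139), and Sri was the only one of the 39 genes called higher on all 3 days. Fkbp1b (ENSMUSG00000020635, chr12:4833174-4841591, minus strand), which encodes a small protein that binds the ryanodine receptor, had 0.823, 2.10, 1.38, 1.21 and 1.21 CPM in MI hearts, against 0.977, 1.22, 0.939, 0.850 and 0.617 CPM in sham hearts at day 2. At day 4 Fkbp1b had 2.14, 1.41, 2.64, 2.55 and 2.25 CPM in MI hearts, against 0.636, 0.860, 1.30, 0.804 and 1.11 CPM in sham hearts. At day 7 Fkbp1b had 5.57, 3.11, 4.87, 3.78 and 2.48 CPM in MI hearts, against 1.10, 1.12, 1.43, 1.63 and 0.128 CPM in sham hearts, the lowest of which is a single count. The groups overlapped at day 2 and were apart at days 4 and 7, at levels near the limit of counting. Fkbp1b had log2 fold changes of 0.46 ± 0.28, 1.05 ± 0.27 and 1.66 ± 0.38 (adjusted p = 0.192, 0.00429 and 0.00228), 2.07- and 3.17-fold higher at days 4 and 7. Genes that mark macrophages summed to 349 to 549 CPM in MI hearts, against 261 to 427 CPM in sham hearts at day 2. Their sums were 975 to 1251 CPM in MI hearts, against 335 to 566 CPM in sham hearts at day 4. At day 7 the same genes summed to 721 to 1417 CPM in MI hearts, against 291 to 445 CPM in sham hearts. Of these 6 genes 2, 6 and 6 were called higher and 0 lower, none was at 0, and their part in the Sri and Fkbp1b values was not tested.

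Both calmodulin-dependent kinase genes fell at days 2 and 4. Camk2d, the main form of heart muscle, averaged 143 ± 13.3 CPM in MI hearts, against 175 ± 15.1 CPM in sham hearts at day 2. At day 4 Camk2d averaged 147 ± 11.2 CPM in MI hearts, against 183 ± 10.6 CPM in sham hearts. At day 7 Camk2d averaged 134 ± 24.8 CPM in MI hearts, against 173 ± 13.2 CPM in sham hearts. Camk2d had log2 fold changes of -0.38 ± 0.08, -0.50 ± 0.08 and -0.57 ± 0.12 (adjusted p = 0.00119, 0.000107 and 0.00149). Camk2b had 6.71, 13.6, 7.51, 31.9 and 17.7 CPM in MI hearts, against 21.2, 21.6, 18.6, 23.5 and 19.0 CPM in sham hearts at day 7. Its highest MI value is again replicate 4, with the Myh1 transcripts, and the groups overlapped only there. Camk2b had log2 fold changes of -0.72 ± 0.16, -0.74 ± 0.11 and -0.62 ± 0.35 (adjusted p = 0.00197, 4.23e-05 and 0.152), and without MI replicate 4 the day 7 value was -1.07 and called. It was also called in the fit of all 30 libraries (-0.61).

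Of the 6 genes of IP3 receptors and store-operated entry, 3, 1 and 1 were called lower at days 2, 4 and 7, and 1, 0 and 2 higher. Over all genes 22.2%, 25.2% and 26.6% were called lower and 24.1%, 27.5% and 28.4% higher. With 6 genes, most of these counts lie near those shares and are no result about the set. The IP3 receptors release calcium from stores in most cell types, and Stim1 and Orai1 let calcium in when stores are empty. Itpr1 averaged 41.7 ± 3.23 CPM in MI hearts, against 53.1 ± 4.25 CPM in sham hearts at day 2, where it fell (log2 fold change -0.44 ± 0.081, adjusted p = 0.000467). It had log2 fold changes of -0.15 ± 0.13 and -0.052 ± 0.084 at days 4 and 7 (adjusted p = 0.37 and 0.622). Itpr2, the main form of heart muscle cells, had 34.6, 38.3, 54.6, 42.5 and 44.6 CPM in MI hearts, against 27.7, 25.3, 21.99, 24.7 and 27.0 CPM in sham hearts at day 7, with the MI libraries above the sham libraries. Itpr2 had log2 fold changes of -0.047 ± 0.11, 0.26 ± 0.13 and 0.56 ± 0.12 (adjusted p = 0.756, 0.117 and 0.00147), called at day 7, and at day 4 only without MI replicate 4 (log2 fold change 0.37). Itpr3 averaged 21.3 ± 4.83 CPM in MI hearts, against 12.3 ± 3.41 CPM in sham hearts at day 7. Itpr3 had log2 fold changes of -0.15 ± 0.16, -0.063 ± 0.19 and 0.61 ± 0.19 (adjusted p = 0.479, 0.8 and 0.0168). The day 7 value was 0.39, and not called, with the atrial sum as a covariate.

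Stim1, the sensor of the store, averaged 17.2 ± 1.78 CPM in MI hearts, against 21.2 ± 2.65 CPM in sham hearts at day 2. Stim1 had log2 fold changes of -0.39 ± 0.10, -0.0039 ± 0.10 and 0.19 ± 0.16 (adjusted p = 0.00585, 0.978 and 0.326). Orai1, the channel it opens, averaged 23.5 ± 3.02 CPM in MI hearts, against 18.5 ± 1.62 CPM in sham hearts at day 2. Orai1 had log2 fold changes of 0.26 ± 0.097, 0.17 ± 0.11 and 0.074 ± 0.11 (adjusted p = 0.0407, 0.237 and 0.608). The Orai1 call at day 2 was lost without MI replicate 1, 2, 3 or 4 or sham replicate 1, 3, 4 or 5 (log2 fold changes 0.19 to 0.26). It was also lost with DESeq2 (0.25), in the fit of all 30 libraries (0.24), with the atrial sum as a covariate (0.23) and with no filter (0.26). Trpm4 (ENSMUSG00000038260, chr7:45302632-45333780, minus strand), a calcium-activated sodium and potassium channel, had 13.5, 14.4, 15.5, 13.4 and 10.8 CPM in MI hearts, against 20.3, 21.5, 19.98, 18.5 and 20.7 CPM in sham hearts at day 2. At day 4 Trpm4 had 18.6, 18.8, 18.8, 15.8 and 20.3 CPM in MI hearts, against 29.8, 27.5, 27.8, 27.9 and 29.9 CPM in sham hearts. At day 7 Trpm4 had 23.8, 21.5, 23.5, 18.2 and 22.6 CPM in MI hearts, against 28.7, 25.5, 26.6, 27.9 and 24.99 CPM in sham hearts. The MI libraries lay below the sham libraries on each day, and the log2 fold changes were -0.67 ± 0.098, -0.81 ± 0.087 and -0.48 ± 0.10 (adjusted p = 6.19e-05, 3.14e-06 and 0.00126).

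At day 7, 5 libraries passed the cutoff of 50 CPM for transcripts of another tissue, and without them the fit has 3 MI and 2 sham libraries. Of the libraries kept, MI replicates 3 and 5 still held 22.03 and 24.05 CPM of the lung genes Sftpc and Scgb1a1. In that fit 1 gene was called higher and 18 lower, and 8 genes called with all 10 libraries kept their direction but not their call. Over all genes the fit called 2759 higher and 2208 lower of 14871 tested. With all 10 libraries 4119 were called higher and 3857 lower of 14492, so calls were fewer over all genes too. For the 8 genes: the log2 fold changes were 0.46 for Scn7a, 0.90 for Cacna1d, 2.04 for Fkbp1b, 0.55 for Itpr2, 0.54 for Itpr3, -0.54 for Casq2, -0.62 for Trdn and -0.42 for Trpm4. The 1 gene still called higher was Sri, and Camk2b (-1.24) was called lower there.

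The change of the MI effect between days was tested as an interaction over all 30 libraries. Between day 4 and day 2, 2 of 39 genes differed, where 4.8% of all genes did. Between day 7 and day 4, 2 differed, where 1.02% of all genes did. Between day 7 and day 2, 8 differed, where 19.2% of all genes did. Both counts against day 2 lie near the shares over all genes and are no result about the 39 genes as a set. The MI effect on Scn7a was higher at day 7 than before: its log2 difference was 1.18 ± 0.21 for day 7 minus day 2 (adjusted p = 0.000244) and 0.82 ± 0.21 for day 7 minus day 4 (adjusted p = 0.0444). Cacna1d had 0.93 ± 0.26 for day 7 minus day 2 (adjusted p = 0.0103) and 0.87 ± 0.26 for day 4 minus day 2 (adjusted p = 0.0471). The fall of the junctophilins was deeper later: for day 7 minus day 2, Jph1 had -0.61 ± 0.15 (adjusted p = 0.00469) and Jph2 had -0.56 ± 0.13 (adjusted p = 0.00375). For day 4 minus day 2, Jph1 had -0.55 ± 0.15 (adjusted p = 0.0317). All day 2 libraries carry another run name, so these differences from day 2 cannot be told apart from the sequencing run.

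Itpr2, Stim1, Atp2b4 and Cacna1g also differed between day 7 and day 2. Itpr2 had a log2 difference of 0.64 ± 0.19, Stim1 of 0.61 ± 0.18, Atp2b4 of 0.60 ± 0.18 and Cacna1g of 0.59 ± 0.20 (adjusted p = 0.0153, 0.0184, 0.0166 and 0.0331). Atp2a3 differed between day 7 and day 4, by 0.68 ± 0.17 (adjusted p = 0.0444). Several of these calls lie close to the threshold. Leaving out 1 library ended the call of Cacna1d for day 4 minus day 2 in 16 of 20 fits. It ended that of Jph1 for day 4 minus day 2 in 7 of 20, and those of Scn7a and Atp2a3 for day 7 minus day 4 in 14 and 16 of 20, and of Cacna1g for day 7 minus day 2 in 10 of 20. Jph1 lost it without MI replicate 3 or 4 of day 2 or sham replicate 1 of day 2 or MI replicate 1 or 5 of day 4 or sham replicate 4 or 5 of day 4 (log2 differences -0.55 to -0.48). Cacna1g lost it without MI replicate 1, 4 or 5 of day 2 or sham replicate 1, 4 or 5 of day 2 or MI replicate 3 or 4 of day 7 or sham replicate 2 or 3 of day 7 (log2 differences 0.43 to 0.57). Cacna1d lost it without MI replicate 1, 3, 4 or 5 of day 2 or sham replicate 1, 2, 3, 4 or 5 of day 2 or MI replicate 1, 3, 4 or 5 of day 4 or sham replicate 1, 2 or 4 of day 4 (log2 differences 0.78 to 0.90). Scn7a lost it without MI replicate 1, 2 or 4 of day 4 or sham replicate 1, 2 or 3 of day 4 or MI replicate 1, 2, 3 or 4 of day 7 or sham replicate 1, 3, 4 or 5 of day 7 (log2 differences 0.73 to 0.85). Atp2a3 lost it without MI replicate 1, 2, 3, 4 or 5 of day 4 or sham replicate 1, 2 or 3 of day 4 or MI replicate 1, 2, 3 or 4 of day 7 or sham replicate 1, 3, 4 or 5 of day 7 (log2 differences 0.59 to 0.71). Stim1 lost its call without MI replicate 4 of day 7 (log2 difference 0.41). Without all libraries that hold transcripts of another tissue, the calls were lost for Cacna1d at day 4 minus day 2 (0.86), for Scn7a and Atp2a3 at day 7 minus day 4 (0.83 and 0.53), and for Cacna1g, Atp2b4 and Itpr2 at day 7 minus day 2 (0.24, 0.50 and 0.63). With no filter on low counts they were lost for Cacna1d at day 4 minus day 2 (0.87), for Scn7a and Atp2a3 at day 7 minus day 4 (0.79 and 0.65) and for Cacna1g at day 7 minus day 2 (0.55). The day 7 minus day 2 differences of Scn7a, Cacna1d, Jph1 and Jph2 were called in each of the 25 alternatives, none of which could vary the sequencing run.

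**Figure D4:**
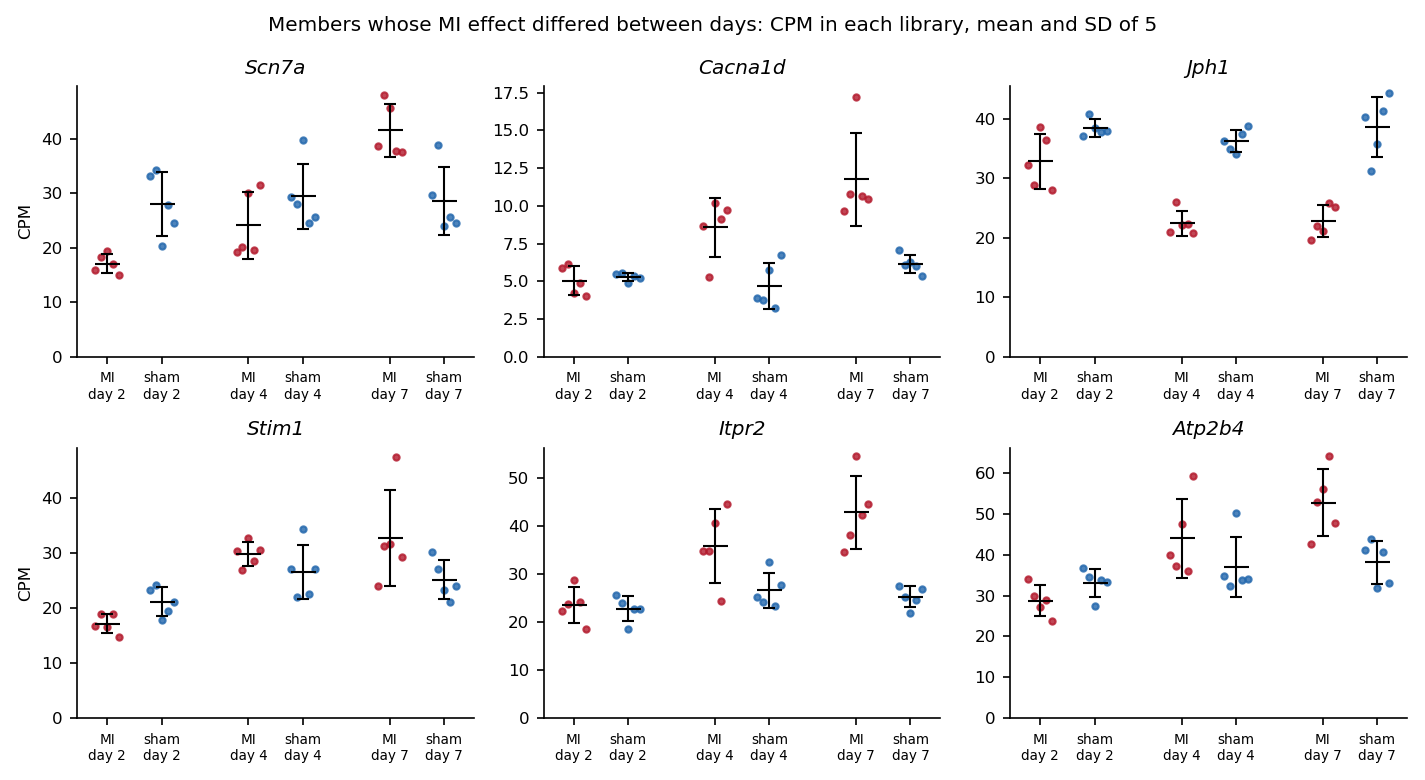
CPM of 6 genes whose MI effect differed between days, in each library (points) with the mean and SD of 5, MI in red and sham in blue. MI hearts hold less Scn7a than sham hearts at day 2 and more at day 7, all MI libraries lie above sham for Cacna1d at day 7, and Jph1 drops further below sham after day 2.

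Sham hearts alone give the reference for these days. Between sham day 7 and sham day 4, 0 of 39 genes differed by edgeR, where 0.122% of all genes did, and 1 by DESeq2. Unadjusted p-values from edgeR were under 0.05 for 4 of the 39, which are Cacna1d, Cacnb2, Sln and Casq2. Between sham day 4 and sham day 2, 9 differed, where 24.4% of all genes did, a step that also changes the sequencing run. That count lies near the share over all genes and is no result about the set. Pln was lower at sham day 4 than at sham day 2, with 7239.8 ± 1073 CPM at sham day 4, against 11455 ± 1270.4 CPM at sham day 2 (SD, n = 5 each, log2 fold change -0.68 ± 0.16, adjusted p = 0.00178). Scn4b, Hrc, Camk2b, Atp2a3, Itpr3, Trpm4 and Jph2 were higher at sham day 4, by 0.83 ± 0.27, 0.61 ± 0.16, 0.69 ± 0.25, 0.62 ± 0.12, 0.55 ± 0.20, 0.48 ± 0.087 and 0.33 ± 0.095 on the log2 scale. Cacna2d1 was lower, with a log2 fold change of -0.30 ± 0.11.

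Ratios of 2 genes within a library do not depend on the scaling between libraries. 8 ratios on 3 days gave 24 exact permutation tests, of which 17 had an adjusted p under 0.05. With 5 against 5 libraries the smallest p such a test can give is 0.00794. The pairs were chosen with earlier results of these data known, so the count of 17 is not independent support. A ratio also moves when either gene moves alone, so the falls of single genes described above enter these tests. Slc8a1 rose relative to Atp2a2: the geometric mean ratio of their CPM was 0.0296 in MI hearts, against 0.00935 in sham hearts, at day 2. The ratio was 0.0248 in MI hearts, against 0.0126 in sham hearts, at day 4. At day 7 the ratio was 0.0307 in MI hearts, against 0.0105 in sham hearts. That is 3.17-, 1.97- and 2.91-fold higher, without overlap between groups (exact permutation test, adjusted p = 0.0136 on each day). Atp2a3 also rose relative to Atp2a2, 2.78-, 1.62- and 3.27-fold (exact permutation test, adjusted p = 0.0136, 0.0254 and 0.0136). The groups of this ratio overlapped at day 4, and Atp2a3 itself was called higher on no day and lower at day 4. Itpr2 rose relative to Ryr2, 1.67-, 1.53- and 2.28-fold, without overlap (exact permutation test, adjusted p = 0.0136 on each day).

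Scn4b fell relative to Cacna1c, by 2.38-, 2.81- and 3.58-fold, without overlap (exact permutation test, adjusted p = 0.0136 on each day). Atp2a2 fell relative to Tnnt2, the troponin T of the heart muscle filament, by 2.80-fold at day 2 and 1.88-fold at day 7, without overlap (exact permutation test, adjusted p = 0.0136 on both days). At day 4 it was 1.37-fold lower (adjusted p = 0.0529, exact permutation test), and this passed without sham replicate 2 or 4 or MI replicate 3 (log2 differences -0.52, -0.51 and -0.52). Tnnt2 is 1 of the 9 heart muscle markers and did not follow their sum at day 2. There the ratio moved by -1.485 on the log2 scale, more than Atp2a2 itself by edgeR, -1.36. The marker sum averaged 43690 CPM in MI hearts, against 53310 CPM in sham hearts, at day 2. Atp2a2 was not compared with that sum, so these folds do not measure a fall beyond that of heart muscle RNA. The balance of brake and pump, Pln to Atp2a2, was 0.876 in MI hearts, against 0.617 in sham hearts, at day 2 (1.42-fold higher, exact permutation test, adjusted p = 0.0448). At day 4 it was 0.414 in MI hearts, against 0.375 in sham hearts, and at day 7 0.498 in MI hearts, against 0.433 in sham hearts (exact permutation test, adjusted p = 0.433 and 0.372). The day 2 ratio missed the threshold without MI replicate 1, 2, 3 or 5 or sham replicate 1, 2 or 4 (log2 differences 0.44 to 0.54). Casq2 to Ryr2 was 1.52-fold higher in MI hearts at day 2 (exact permutation test, adjusted p = 0.0136) and did not pass at days 4 and 7, with log2 differences of -0.34 and 0.16. At day 4 it passed without MI replicate 4 (-0.43). Camk2d to Camk2b was 1.18-fold higher at day 4 (exact permutation test, adjusted p = 0.0448), which was lost without MI replicate 2, 3, 4 or 5 or sham replicate 1, 3 or 5 (log2 differences 0.18 to 0.27) and with 1 added to each CPM (0.21).

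**Figure D5:**
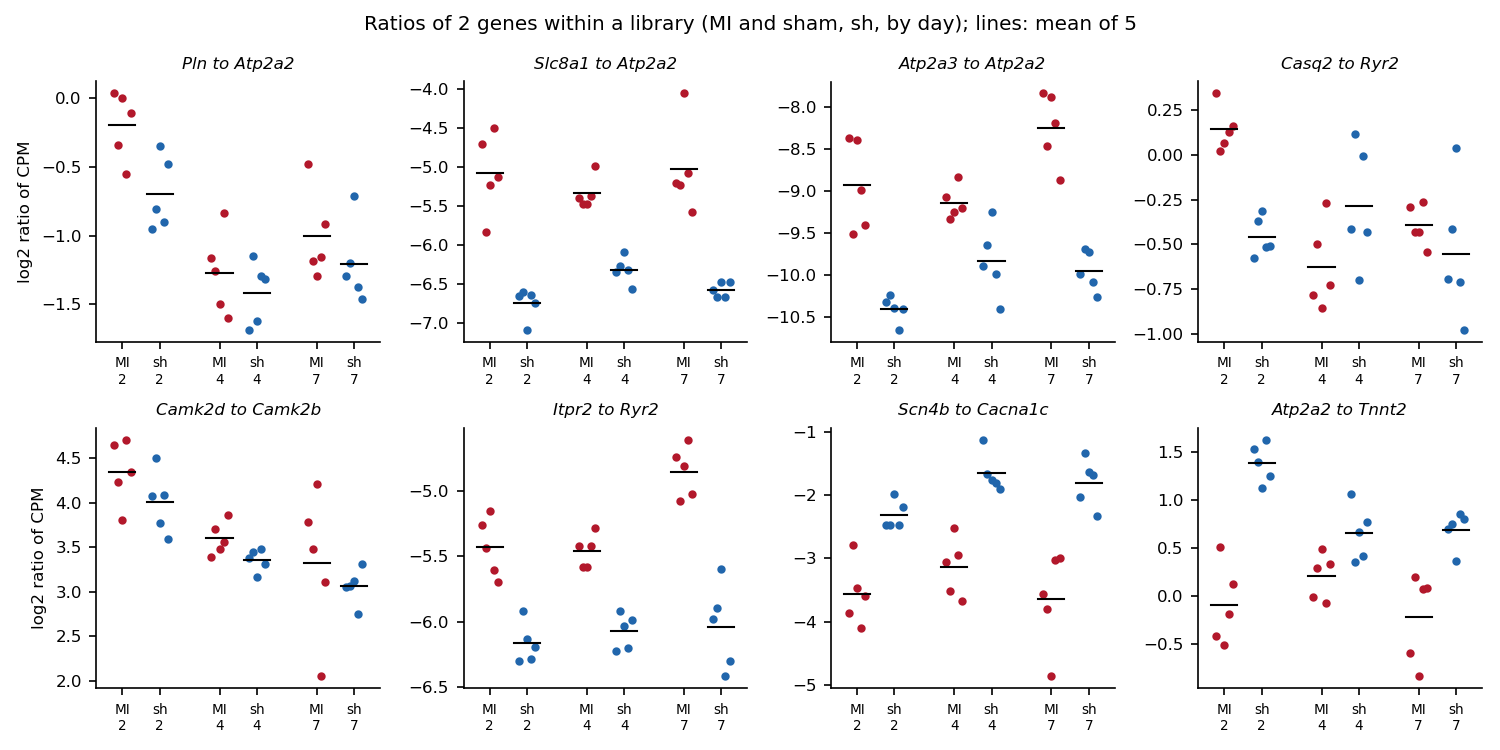
Log2 ratio of the CPM of 2 genes within each library (points) with the mean of 5 (lines), MI in red and sham (sh) in blue, at days 2, 4 and 7. Slc8a1 to Atp2a2 and Itpr2 to Ryr2 lie above sham and Scn4b to Cacna1c below sham on all 3 days without overlap.

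By level per kilobase of exon the order of the 5 highest genes at day 2 was the same in both groups. Pln had 2435 CPM per kilobase in MI hearts, against 4152 in sham hearts, and Atp2a2 had 1266 in MI hearts, against 3049 in sham hearts. Casq2 followed with 408 in MI hearts, against 436 in sham hearts, then Hrc with 145 in MI hearts, against 325 in sham hearts, and Jph2 with 142 in MI hearts, against 176 in sham hearts. Hrc and Jph2 had nearly the same level in MI hearts. The order differed between the groups at day 7, with Pln, Atp2a2, Casq2, Sln and Hrc highest in MI hearts, against Atp2a2, Pln, Hrc, Casq2 and Jph2 in sham hearts. At that day Pln had 1440 CPM per kilobase in MI hearts, against 2949 in sham hearts, and Atp2a2 had 1293 in MI hearts, against 3110 in sham hearts. The lowest at day 2 were Scn2b and Scn3b, with 0.0605 and 0.349 in MI hearts, against 0.0939 and 0.326 in sham hearts. Cacna1c stood at 6.54 in MI hearts, against 10.8 in sham hearts, and Slc8a1 at 12.3 in MI hearts, against 9.35 in sham hearts.

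Over the 30 libraries, the genes whose log2 level was most like that of Scn4b were Scn4a, Hrc and Atp2a2, with Pearson correlations of 0.957, 0.938 and 0.933. These libraries share their MI and sham groups, and on deviations from the group means the correlations were 0.793, 0.487 and 0.618.

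Other genes of the same pathways were counted from lists. Over all genes tested, 24.1%, 27.5% and 28.4% were called higher and 22.2%, 25.2% and 26.6% lower at days 2, 4 and 7, and a list whose share of tested genes is near these is no result about that list. Of 9 other sodium channel subunits, 4, 4 and 5 were tested at days 2, 4 and 7, with 0, 1 and 2 called higher and 0, 2 and 2 called lower. Scn10a averaged 1.16 ± 0.359 CPM in MI hearts, against 3.20 ± 0.546 CPM in sham hearts at day 7 (log2 fold change -1.67 ± 0.26, adjusted p = 0.000136). Of 19 other calcium channel subunits, 8 were tested, with 0, 1 and 2 called higher and 3, 1 and 2 lower at days 2, 4 and 7. Cacnb3, a beta subunit, averaged 24.96 ± 1.14 CPM in MI hearts, against 7.64 ± 2.30 CPM in sham hearts at day 7 (log2 fold change 1.51 ± 0.16, adjusted p = 7.14e-06). Cacna1s, the L-type pore of skeletal muscle, averaged 5.09 ± 0.799 CPM in MI hearts, against 14.8 ± 2.59 CPM in sham hearts at day 4 (log2 fold change -1.72 ± 0.16, adjusted p = 9.11e-07).

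Of 20 further genes of the junction and store, 14 were tested, with 5, 5 and 4 called higher and 4, 7 and 8 lower at days 2, 4 and 7, beside 24.1%, 27.5% and 28.4% higher and 22.2%, 25.2% and 26.6% lower over all genes. Bin1, which shapes the tubules of the cell membrane, averaged 37.9 ± 4.14 CPM in MI hearts, against 15.5 ± 4.17 CPM in sham hearts at day 4 (log2 fold change 1.12 ± 0.14, adjusted p = 1.02e-05). Of 11 further pumps and exchangers, 8, 9 and 9 were tested, with 2, 1 and 0 called higher and 3, 3 and 3 lower. Of 31 calmodulin, kinase and phosphatase genes, 30, 31 and 31 were tested, with 6, 9 and 7 called higher and 8, 17 and 16 lower, beside the same shares over all genes. At day 2 both counts lie near those shares. Camk2a averaged 29.8 ± 7.80 CPM in MI hearts, against 70.5 ± 8.60 CPM in sham hearts at day 7 (log2 fold change -1.44 ± 0.17, adjusted p = 1.7e-05). Rcan1, a target and inhibitor of calcineurin, averaged 454 ± 65.2 CPM in MI hearts, against 166 ± 19.2 CPM in sham hearts at day 4 (log2 fold change 1.27 ± 0.12, adjusted p = 1.31e-06).

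Of 12 genes of calcium handling in mitochondria, 2, 1 and 3 were called higher and 5, 5 and 6 lower, beside 24.1%, 27.5% and 28.4% higher and 22.2%, 25.2% and 26.6% lower over all genes. At days 2 and 7 the counts called higher lie near those shares, and at day 4 the count is below. The counts called lower are above them on each day. Mcub, the inhibitory subunit of the mitochondrial calcium uniporter, averaged 9.07 ± 1.80 CPM in MI hearts, against 4.31 ± 1.28 CPM in sham hearts at day 2. At day 4 Mcub averaged 12.4 ± 1.54 CPM in MI hearts, against 4.10 ± 0.700 CPM in sham hearts. At day 7 Mcub averaged 12.1 ± 3.08 CPM in MI hearts, against 3.92 ± 1.20 CPM in sham hearts. Mcub had log2 fold changes of 0.98 ± 0.18, 1.43 ± 0.15 and 1.43 ± 0.23 (adjusted p = 0.000489, 2.06e-06 and 0.000136). Of 17 further store-operated and cation channel genes, 14 were tested, with 4, 7 and 10 called higher and 2, 3 and 2 lower. Orai2, a relative of Orai1, averaged 13.4 ± 1.58 CPM in MI hearts, against 3.89 ± 1.27 CPM in sham hearts at day 7 (log2 fold change 1.59 ± 0.19, adjusted p = 1.95e-05). Of 5 relatives of sorcin, 2, 1 and 1 were called higher and 0, 1 and 1 lower. Among them Capn2 averaged 155 ± 6.92 CPM in MI hearts, against 115 ± 14.9 CPM in sham hearts at day 2 (log2 fold change 0.34 ± 0.086, adjusted p = 0.00459). The median log2 fold changes of the store-operated list were 0.20, 0.35 and 0.68 at days 2, 4 and 7, and those of the kinase list 0.049, -0.30 and -0.38, beside medians over all genes of -0.0051, 0.0061 and 0.012.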

How the data were processed

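Total RNA was purified with a RNeasy Mini kit and libraries were made from mRNA with a NEBNext Ultra II Directional kit and read in pairs of 150 bases on a NovaSeq, per the labels' protocols. The authors deposited raw counts per Ensembl gene (GRCm38), made with bcl2fastq 2.20.0 and featureCounts, per the submitters' processing notes. For the aligner and for the strandedness of the counting nothing was stated. Symbols from the annotation matched 42462 of 43629 genes (97.3%).

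MI and sham libraries of each day (5 against 5) were compared with edgeR 4.0.16 in R 4.3.3: TMM scaling, genes kept by a minimum count of 10 and total of 15, the robust quasi-likelihood test, and Benjamini-Hochberg adjustment over all genes tested (14524, 14410 and 14492 at days 2, 4 and 7), with a threshold of 0.05. Differences between days, and between sham days, came from 1 fit of all 30 libraries (15537 genes). Ratios of 2 genes were compared with a 2-sided exact permutation test (scipy 1.17.1), adjusted over 24 tests. DESeq2 1.42.0 and other settings served as alternatives, and the fits were tested on simulated data. Libraries held 7841930 to 14070017 counts, and intervals and floors of 3 counts cover counting error only. Of the 60 pairs of libraries within a group, none agreed within sampling noise.

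No measured value chose the 39 genes, and the pathway lists were fixed from general knowledge. Earlier results of these data were known when these and the marker lists were set. The gene pairs of the ratios were chosen with those results known. All 39 are described; of each pathway list, named genes were drawn from the up to 3 called genes of largest absolute log2 fold change with a mean of at least 1 CPM. Marker lists are given by their sums and the markers at 0. Some genes that this rule names are not reported here.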

Additional observations from a re-analysis of the deposited data

Results flagged for a closer look

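Among 234 groups of 5 libraries, 19 (8.12%) held 1 library far from the other 4, where chance gives about 1 in 20. Above their groups stood Scn4b in MI day 4 replicate 3 (32.3 CPM, others 15.7 to 19.6) and in sham day 4 replicate 1 (138 CPM, others 62.2 to 78.4), and Scn3b in MI day 7 replicate 2 (9.23 CPM, others 2.06 to 4.12). Scn2b stood above in MI day 7 replicate 5 (2.16 CPM), Cacna1d in MI day 7 replicate 3 (17.2 CPM, others 9.66 to 10.8), and Jph1 in MI day 4 replicate 2 (26.0 CPM). Casq1 did so in MI day 7 replicate 4 (47.3 CPM, others 6.82 to 14.4) and in sham day 2 replicate 5 (17.8 CPM). Casq2 did so in MI day 2 replicate 4 (1286 CPM, others 1042 to 1089) and in sham day 7 replicate 4 (1295 CPM). Sri stood above in MI day 2 replicate 1 (122.8 CPM), Atp2b1 in MI day 4 replicate 5 (138.6 CPM), and Pln in sham day 7 replicate 3 (9125 CPM, others 7733 to 8014). Sham day 4 replicate 3, which holds lung transcripts, stood above its group for Hcn4 (17.4 CPM), Atp2b4 (50.2 CPM) and Itpr3 (24.9 CPM, others 11.8 to 14.6). Below their groups lay Hcn2 in MI day 4 replicate 5 (21.8 CPM), Cacna1c in sham day 2 replicate 3 (181 CPM, others 232.6 to 250.7) and Atp2b1 in sham day 7 replicate 3 (74.4 CPM).

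The MI effect differed between days by an interaction test in 12 cases. For day 4 minus day 2 the log2 difference was 0.87 for Cacna1d and -0.55 for Jph1, and for day 7 minus day 4 it was 0.82 for Scn7a and 0.68 for Atp2a3. For day 7 minus day 2 it was 1.18 for Scn7a, 0.93 for Cacna1d, 0.59 for Cacna1g, -0.61 for Jph1, -0.56 for Jph2, 0.60 for Atp2b4, 0.64 for Itpr2 and 0.61 for Stim1. All day 2 libraries carry another run name than those of days 4 and 7, so a difference from day 2 cannot be told apart from the run.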

How the results depend on the processing

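The other settings were DESeq2, median-ratio factors, no filter on low counts, the replicate block, all 30 libraries in 1 fit, the atrial sum as a covariate, leaving out the libraries with transcripts of another tissue, and leaving out 1 library in turn. A sign turned only for genes that were not called. With DESeq2, the log2 fold change was -0.0068 for Scn3b at day 2, -0.0089 for Casq1 at day 4, -0.0191 for Atp2b1 at day 4. With all 30 libraries in 1 fit, the log2 fold change was -0.0183 for Scn3b at day 2, -0.0021 for Casq1 at day 4, -0.012 for Atp2b1 at day 4. With the atrial sum as a covariate, the log2 fold change was -0.0448 for Scn3b at day 2, -0.0063 for Atp2a3 at day 2, 0.13 for Sln at day 4, 0.0449 for Itpr3 at day 4, 0.0275 for Stim1 at day 4, -0.0995 for Slc8a1 at day 7, -0.017 for Atp2b1 at day 7. With median-ratio factors, the log2 fold change was -0.0042 for Scn3b at day 2, -0.0072 for Casq1 at day 4, -0.0185 for Atp2b1 at day 4. With no filter on low counts, the log2 fold change was 0.0119 for Stim1 at day 4. Without the libraries that hold transcripts of another tissue, the log2 fold change was 0.41 for Scn3b at day 4, 0.27 for Sln at day 4, -0.13 for Casq1 at day 4, -0.0545 for Atp2b1 at day 4, 0.14 for Itpr3 at day 4, 0.0254 for Stim1 at day 4, -0.24 for Casq1 at day 7, -0.0957 for Slc8a1 at day 7, -0.0837 for Orai1 at day 7. With the replicate block, the log2 fold change was -0.0021 for Scn3b at day 2, -0.006 for Atp2b1 at day 4, 0.0041 for Stim1 at day 4. Leaving out 1 library in turn gave log2 fold changes of -0.061 to 0.0971 for Scn3b at day 2, -0.14 to 0.0129 for Itpr2 at day 2, -0.47 to 0.10 for Scn3b at day 4, -0.37 to 0.10 for Sln at day 4, -0.13 to 0.11 for Casq1 at day 4, -0.0856 to 0.0429 for Atp2b1 at day 4, -0.043 to 0.18 for Atp2b4 at day 4, -0.20 to 0.13 for Itpr3 at day 4, -0.0604 to 0.0769 for Stim1 at day 4, -0.0648 to 0.93 for Casq1 at day 7, -0.0939 to 0.20 for Slc8a1 at day 7. The count of genes called higher at day 2 was 1 with DESeq2, with all 30 libraries, with the atrial sum and with no filter, and 1 to 2 leaving out 1 library, with 1 without MI replicate 1, 3 or 4 or sham replicate 1, 3 or 4. The count called higher at day 7 was 1 without the libraries that hold transcripts of another tissue, and 5 to 7 leaving out 1 library. The count that differed between day 4 and day 2 was 4 with DESeq2 and 1 with no filter, without those libraries and with the replicate block, and 0 to 4 leaving out 1 library. The count between day 7 and day 4 was 0 with no filter and without those libraries, 1 with the replicate block, and 0 to 2 leaving out 1 library. The count between day 7 and day 2 was 6 to 14 leaving out 1 library, with 14 without MI day 7 replicate 5. In sham hearts the count between day 7 and day 4 was 1 with DESeq2, and between day 4 and day 2 it was 5 to 10 leaving out 1 library, with 5 without sham day 2 replicate 1 or 3 or sham day 4 replicate 1. The cause was not tested. Same-numbered MI and sham libraries had correlations of deviations from their group means of -0.033 to 0.309 at day 2, -0.191 to 0.251 at day 4 and -0.304 to 0.132 at day 7. At these days 2, 1 and 0 of 5 MI libraries were most like the sham library of their own number. These values do not show that the numbers pair the samples, and with 5 libraries per group they cannot exclude it. With the replicate block, Cacnb2 (-0.31) and Slc8a1 (0.29) at day 2 and Camk2b at day 7 (-0.82) were called, and the differences of Cacna1d between day 4 and day 2 (0.86) and of Scn7a between day 7 and day 4 (0.82) were not. Depth limits Scn2b, Cacng6 and Fkbp1b, whose lowest libraries lie near the 0.213 to 0.383 CPM that 3 counts make.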
